A study of Mus musculus with 12 samples.

Results

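The genes described here are 10 integrin subunits, Itga2, Itga3, Itga5, Itga6, Itgav, Itgb1, Itgb3, Itgb4, Itgb5 and Itgb6, taken by name with every named probe on the array. They had 22 of the 45281 probes. Of these, 16 probes of 9 subunits were detected above background on at least 3 arrays and were tested among 10365 genes. The remaining gene, Itgb3, was not. Integrins are transmembrane adhesion receptors, each made of an alpha and a beta subunit, that tie extracellular matrix on the outside to actin or keratin filaments on the inside. In mammary epithelium the pairs of Itga3 and Itga6 with Itgb1, and of Itga6 with Itgb4, bind laminin of the basement membrane. Itga2 with Itgb1 binds collagen. Itga5 with Itgb1, and Itgav with Itgb3, Itgb5 or Itgb6, bind ligands that carry the arginine-glycine-aspartate (RGD) motif, such as fibronectin and vitronectin, and the pair of Itgav and Itgb6 also binds latent TGF-beta.

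Expression was measured on 12 Illumina Mouse WG-6 v2.0 BeadChip arrays in iTICs, mouse tumor-initiating cells that had been immortalized. In hypoxic stem cell conditions (3 arrays) the cells grew in serum-free mammary stem cell medium on a MEBM base with 2% Cultrex, an extract of basement membrane, at 3% oxygen. In normoxic standard conditions they had been moved to DMEM-based standard medium at 21% oxygen for 1 to 7 days, with 1 array for each of days 1 to 6 and 3 for day 7. Oxygen, medium and the supplied basement membrane changed together and cannot be told apart, and the labels do not say that replicates were separate cultures, so p-values measure a spread that may be technical.

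Per array, 34.3% to 37.7% of probes were detected. Levels are normalized log2 intensities, so a difference of 1 is a factor of 2, and levels of different probes are not comparable. Sample names follow the deposited signal table, with which the authors' processed table conflicts. The arrays fall into 2 sets of 6 by which of them the authors' processed table holds. Days 4 to 6, the third hypoxic replicate and the day 7 replicates 2 and 3 make up set a, and the 6 others set b. No label calls these batches. Set a has 1 hypoxic and 2 day 7 arrays and set b 2 hypoxic and 1 day 7 array, so a day 7 difference within a set has a single array in 1 arm. For each gene such a difference is given as a value, with no test. Counts of day 7 calls within a set appear only where the dependence on the processing is described. They assume that the single array varies like the others, and no result is drawn from them. Of 9 epithelial markers 8 were detected on all 12 arrays, with the basal keratin Krt14 and the luminal keratin Krt8 among them, and Krt19 was detected on 1 of 3 hypoxic and 1 of 9 normoxic arrays. Of 5 named leukocyte and 5 endothelial markers 0 were detected on all arrays, and Adgre1 and Tie1 on none. Of 7 fibroblast markers 2 were detected on all 12 arrays, and Thy1 was detected on none.

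The subunits followed different courses. Itgb6, Itga2 and Itgav were highest on the first normoxic day and then declined, while Itgb4 and Itga6 were at a lower level from day 4 on. Itga3 did both, rising first and ending below its hypoxic level. Itga5 was higher in normoxic cells throughout. Itgb5 was lowest early, and Itgb1 rose on days 1 to 3 and did not pass on day 7. On days 1 to 3 against hypoxic cells 6 of 9 subunits rose and 2 fell, against 25.6% and 29.2% of all genes. On day 7, 2 rose (25.9% of all genes) and 4 fell (33.7%). Calls in either direction came to 8 of 9 subunits on days 1 to 3 (54.9% of all genes) and to 6 of 9 on day 7 (59.7%). The day 7 count was near the share of all genes, and whether the early count differed from it was not tested. Rose and fell mark a limma adjusted p below 0.05 over all genes tested. The 2 comparisons share the 3 hypoxic arrays. The median difference over the 9 subunits was 0.71 on days 1 to 3 and 0.10 on day 7, beside -0.055 and -0.11 over all genes. For 6 of 9 subunits the highest normoxic value lay on the day 1 array, where 16% of all genes had theirs. Day 7 against days 1 to 3, a comparison without hypoxic arrays that was added after the data were seen, gave 6 subunits lower and 1 higher, where 24.6% of all genes were lower and 44.7% passed either way. With the sets as a block it gave 5 lower and 0 higher.

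**Figure D1:**
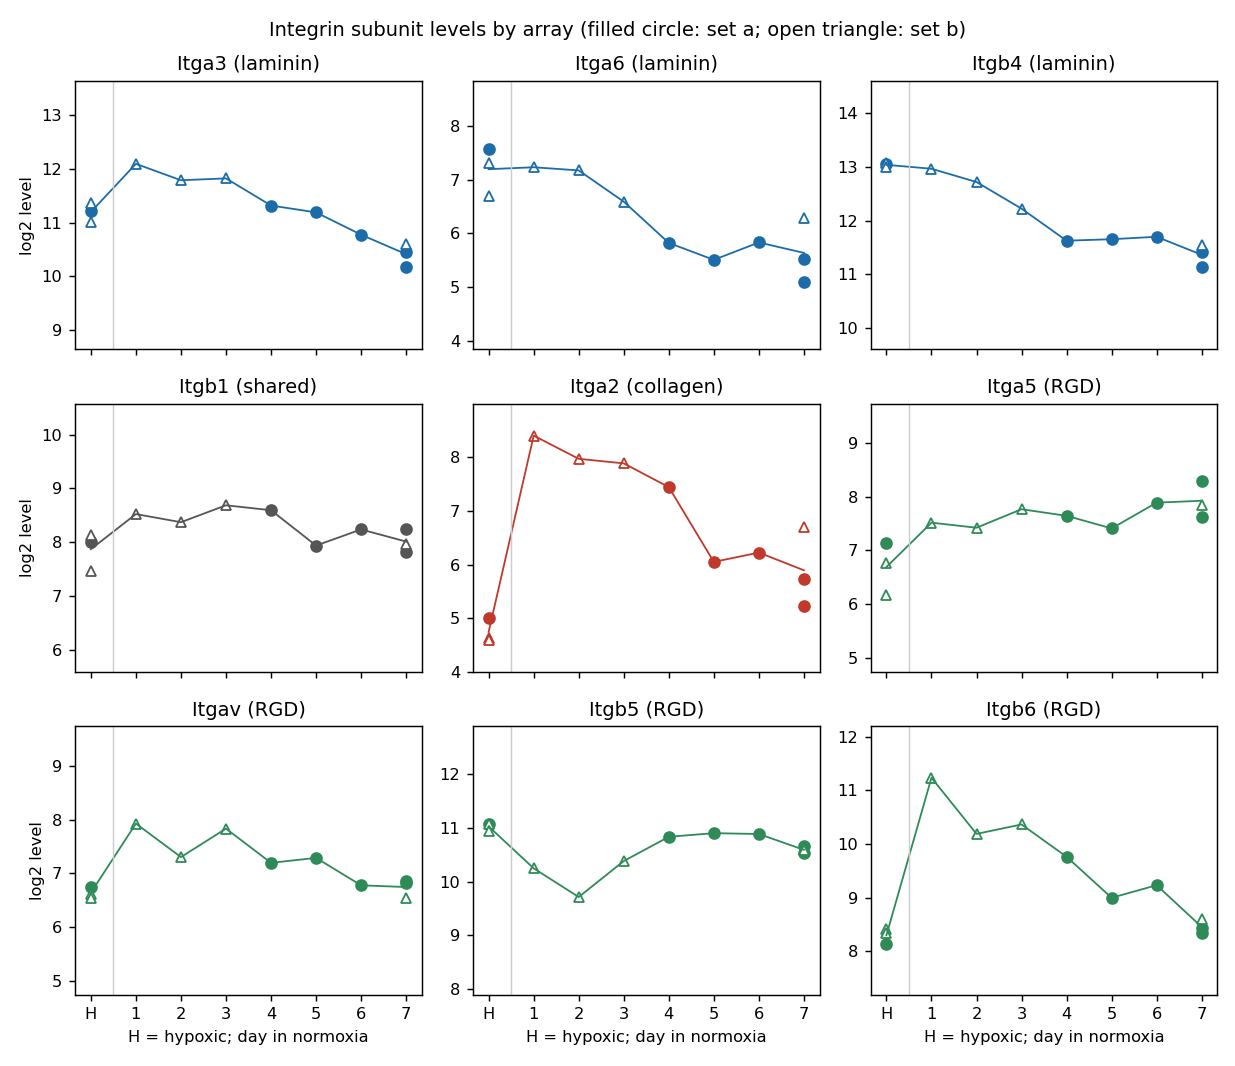
Normalized log2 level of the representative probe of 9 integrin subunits on each of 12 arrays, at the hypoxic state (H) and on days 1 to 7 of normoxic culture; lines join the mean at each state, filled circles are set a, open triangles set b, and each panel spans the same log2 range. Itgb6 stood at 11.23 on day 1 and at 8.33 to 8.60 on day 7, and Itgb4 at 12.99 to 13.06 in hypoxic cells and at 11.13 to 11.54 on day 7.

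Beside the trio Itgb6, Itga2 and Itgav, whose levels rose together, Itgb5 moved the other way. The 250 bases upstream of the outermost RefSeq start of these 4 genes (assembly GRCm38.p6) are shown 5′ to 3′ as the DNA that neighbours subunits of opposite early course. Of the 10 subunits 7 had an entry, and Itga6, Itgb3 and Itgb4 did not. Capitals mark GCGTG, a core of the hypoxia response element, or GGGCGG, the Sp1 box, each on either strand.
Itgb6, chr2:60722604-60722853, - strand: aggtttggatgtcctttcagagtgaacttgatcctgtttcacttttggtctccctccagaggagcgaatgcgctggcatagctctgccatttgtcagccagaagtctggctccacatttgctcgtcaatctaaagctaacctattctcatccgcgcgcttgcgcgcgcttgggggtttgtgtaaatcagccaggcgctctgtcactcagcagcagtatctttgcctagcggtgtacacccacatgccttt
Itga2, chr13:114932101-114932350, - strand: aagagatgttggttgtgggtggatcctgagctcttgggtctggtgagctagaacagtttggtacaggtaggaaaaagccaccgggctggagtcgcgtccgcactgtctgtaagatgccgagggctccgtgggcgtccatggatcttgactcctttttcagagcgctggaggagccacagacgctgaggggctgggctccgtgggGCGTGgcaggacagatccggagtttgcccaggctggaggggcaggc
Itgav, chr2:83724147-83724396, + strand: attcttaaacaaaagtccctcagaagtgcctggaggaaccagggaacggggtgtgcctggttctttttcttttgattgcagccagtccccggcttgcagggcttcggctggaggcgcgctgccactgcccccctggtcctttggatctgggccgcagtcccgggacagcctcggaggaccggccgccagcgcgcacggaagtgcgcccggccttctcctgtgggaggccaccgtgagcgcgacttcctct
Itgb5, chr16:33829415-33829664, + strand: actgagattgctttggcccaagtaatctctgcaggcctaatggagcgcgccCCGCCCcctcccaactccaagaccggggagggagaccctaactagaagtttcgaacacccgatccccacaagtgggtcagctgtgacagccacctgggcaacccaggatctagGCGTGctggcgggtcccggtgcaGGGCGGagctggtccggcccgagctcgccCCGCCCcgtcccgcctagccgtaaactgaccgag

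Itga2 held 1 GCGTG and Itgb5 1 GCGTG and 3 Sp1 boxes, while Itgb6 and Itgav held none of the motifs searched. The early course did not sort the windows, since of the other subunits that rose early Itga3 held 3 Sp1 boxes, Itga5 held 2, and Itgb1 held 1 and a TEAD motif. The motifs searched were, on both strands, TGANTCA for AP-1, ACGTG and GCGTG for hypoxia-inducible factors, GGAATG for TEAD and GGGCGG for Sp1. Over all 32851 upstream windows of the same length, 6.75%, 16.6%, 28.2%, 12.6% and 32.7% held them. A match in such a window is a description of its letters only.

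Itgb6, the epithelial beta subunit that pairs with Itgav, had hypoxic levels of 8.42, 8.33 and 8.14. Its level was 11.23 on day 1, 10.19 on day 2 and 10.36 on day 3, then 9.76, 8.996 and 9.23 on days 4 to 6, and 8.60, 8.43 and 8.33 on the day 7 arrays. All early arrays were above every hypoxic array, and the day 7 values overlapped the hypoxic ones. The rise on days 1 to 3 was 2.30 ± 0.14 (4.91-fold, SE, limma adjusted p = 2.00e-05). Day 7 stood at 0.16 ± 0.14 from hypoxic cells (adjusted p = 0.355). Its slope across the 9 normoxic arrays was -0.42 ± 0.040 per day (adjusted p = 0.000104). Both other kept probes of Itgb6 gave the same course, at 1.85 ± 0.17 and 1.84 ± 0.26 on days 1 to 3 and at -0.042 and 0.15 on day 7. The fourth was detected on 0 of 12 arrays.

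Itga2, the collagen-binding alpha subunit, was not well above background on any hypoxic array, with measured values of 4.64, 4.59 and 5.01. It reached 8.40 on day 1, 7.97 on day 2 and 7.89 on day 3, followed by 7.44, 6.05 and 6.23 on days 4 to 6. On day 7 it was 6.71, 5.74 and 5.24, detected on 2 of 3 arrays. The early arrays lay above all later ones, and 1 day 7 array, like the 3 hypoxic ones, was at background, where values carry no order. Against the background level, Itga2 was at least 6.59-fold higher on days 1 to 3 and at least 1.44-fold higher on day 7. The measured values passed at both times (limma adjusted p = 0.000219 and 0.0255), and the bounds themselves were not tested. The day 7 call was lost without hypoxic replicate 1 (adjusted p = 0.0833) or 2 (0.0767). The day 7 difference of the measured values, with the hypoxic ones at background, was 1.15 ± 0.35 over all arrays, 2.09 within set b and 0.48 within set a. The slope over normoxic days was -0.44 ± 0.066 (adjusted p = 0.000915).

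Itgav, the alpha subunit shared by the RGD receptors with Itgb3, Itgb5 and Itgb6, had hypoxic levels of 6.62, 6.55 and 6.75. On days 1 to 3 it stood at 7.93, 7.30 and 7.83, on days 4 to 6 at 7.19, 7.29 and 6.78, and on day 7 at 6.55, 6.82 and 6.86. The early values were all above the hypoxic ones, and the day 7 values overlapped them. The early rise was 1.05 ± 0.14 (2.07-fold, adjusted p = 0.000577), and the slope over normoxic days was -0.18 ± 0.037 (adjusted p = 0.00386). Day 7 differed from hypoxic cells by 0.10 ± 0.14 (adjusted p = 0.536). The other kept Itgav probe, detected on 4 of 12 arrays, gave -0.28 ± 0.25 on days 1 to 3 (adjusted p = 0.406), and with the mean over both probes the early call was lost (0.39, adjusted p = 0.0777). The remaining 3 probes of this gene were detected on 0 or 1 arrays each.

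Itgb5, which pairs with Itgav in a vitronectin receptor, went the other way. Its hypoxic levels were 11.07, 10.95 and 11.07. It fell to 10.25, 9.71 and 10.38 on days 1 to 3, was 10.84, 10.90 and 10.89 on days 4 to 6, and 10.58, 10.66 and 10.54 on day 7. All 9 normoxic arrays lay below the 3 hypoxic ones. The early fall was -0.91 ± 0.11 (1.88-fold, adjusted p = 0.000458), and the day 7 fall was -0.44 ± 0.11 (1.35-fold, adjusted p = 0.0126). The day 7 call was lost with arrays scaled on the median of always-detected probes (-0.24, adjusted p = 0.144). No slope over the normoxic days passed (0.10 ± 0.046, adjusted p = 0.104).

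Itga5, the alpha subunit of the fibronectin receptor, was higher on all normoxic arrays. Hypoxic arrays gave 6.77, 6.17 and 7.13, days 1 to 3 gave 7.51, 7.42 and 7.77, days 4 to 6 gave 7.64, 7.41 and 7.89, and day 7 gave 7.84, 7.63 and 8.30. It rose by 0.88 ± 0.28 on days 1 to 3 (1.84-fold, adjusted p = 0.0306) and by 1.23 ± 0.28 on day 7 (2.35-fold, adjusted p = 0.00662). The early call was lost without hypoxic replicate 1 (adjusted p = 0.0728) or 2 (0.0777), or without day 3 (0.0723). A second probe passed as well, at 0.96 ± 0.26 on days 1 to 3 (adjusted p = 0.0180) and 0.72 ± 0.26 on day 7 (adjusted p = 0.0486), although its hypoxic and day 7 values overlapped. Over the normoxic days the slope was 0.073 ± 0.037 (adjusted p = 0.151). Itgb3, which pairs with Itgav in another vitronectin receptor, had 1 probe, and it was detected on 0 of 12 arrays, with signals of 4.55 to 5.15 that carry no order.

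Itgb4, the beta subunit that links laminin to keratin filaments at hemidesmosomes, had hypoxic levels of 13.06, 12.99 and 13.06. Its level was 12.96, 12.72 and 12.22 on days 1 to 3, 11.62, 11.65 and 11.70 on days 4 to 6, and 11.54, 11.13 and 11.41 on day 7. All normoxic arrays were below the hypoxic ones, day 1 by less than the SD of the day 7 arrays (0.21), and the arrays from day 4 on lay below all early ones. On day 7 it had fallen by 1.68 on the log2 scale (3.20-fold, SE 0.14, adjusted p = 7.56e-05). A second probe fell by 1.86 there (SE 0.14, adjusted p = 5.68e-05). The difference was -1.79 within set a and -1.49 within set b. The early difference was -0.40 ± 0.14 (adjusted p = 0.0427) and rested on day 3, without which it was -0.20 (adjusted p = 0.333). It was also lost without any 1 of the hypoxic arrays (adjusted p 0.0793 to 0.108), while the second probe gave -0.61 ± 0.14 (adjusted p = 0.00873). In all, this early call was lost in 9 of 17 alternatives, among them a common median (-0.27, adjusted p = 0.265).

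Itga6, the alpha partner of Itgb4, had hypoxic levels of 7.31, 6.70 and 7.58. Days 1 to 3 gave 7.23, 7.17 and 6.59, days 4 to 6 gave 5.82, 5.51 and 5.83, and day 7 gave 6.28, 5.10 and 5.53. The early values overlapped the hypoxic ones, and the values from day 4 on were below both. Day 7 showed a fall of -1.56 ± 0.34 (2.95-fold, adjusted p = 0.00560), with detection on 1 of 3 day 7 arrays. Days 1 to 3 gave -0.20 ± 0.34 (adjusted p = 0.656). The day 7 difference was -2.26 within set a and -0.73 within set b. A second kept probe, designed on another transcript record and detected on 8 of 12 arrays, did not pass and pointed up, at 0.35 ± 0.20 on day 7 (adjusted p = 0.179), and the remaining probe was detected on 1 array. Over the 12 arrays Itga6 and Itgb4 had a Pearson r of 0.94, the highest of any pair among the 9 subunits, followed by Itga2 with Itgb6 (0.92) and Itgav with Itgb6 (0.90). These values describe 12 arrays that share the step from hypoxic to normoxic culture.

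Itga3, the alpha subunit of another laminin receptor, crossed its hypoxic level. It was 11.37, 11.01 and 11.22 in hypoxic cells, 12.10, 11.79 and 11.83 on days 1 to 3, 11.32, 11.19 and 10.78 on days 4 to 6, and 10.61, 10.18 and 10.45 on day 7. The early arrays were all above and the day 7 arrays all below the hypoxic range. It rose by 0.71 ± 0.16 on days 1 to 3 (1.63-fold, adjusted p = 0.00795) and stood at -0.79 ± 0.16 on day 7 (1.72-fold lower, adjusted p = 0.00427). The day 7 difference was -0.90 within set a and -0.58 within set b. Its slope over normoxic days was -0.29 ± 0.031 (adjusted p = 0.000174).

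Itgb1, the shared beta subunit of the Itga2, Itga3, Itga5 and Itga6 receptors, was 8.13, 7.47 and 8.01 in hypoxic cells. It was 8.52, 8.37 and 8.69 on days 1 to 3, 8.59, 7.94 and 8.24 on days 4 to 6, and 7.97, 7.81 and 8.25 on day 7. Early values lay above the hypoxic ones, and day 7 values overlapped them. The early rise was 0.66 ± 0.21 (1.58-fold, adjusted p = 0.0301), lost without hypoxic replicate 2 (0.46, adjusted p = 0.0723) or day 3 (adjusted p = 0.0733). Day 7 stood at 0.14 ± 0.21 (adjusted p = 0.584). A second probe gave 0.29 ± 0.33 and -0.45 ± 0.33 at these times and passed at neither (adjusted p = 0.516 and 0.292).

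**Figure D2:**
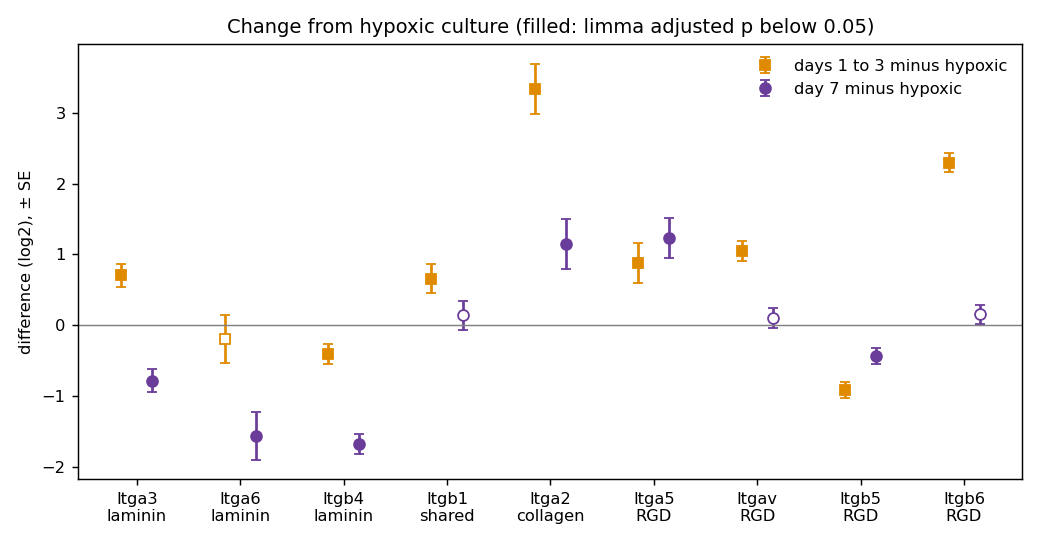
Difference in log2 level from hypoxic cells for 9 integrin subunits on days 1 to 3 (squares) and on day 7 (circles), with the SE of the limma fit as bars; filled symbols have an adjusted p below 0.05. Itga2 and Itgb6 stand highest on days 1 to 3, and Itgb4 and Itga6 lowest on day 7; the hypoxic level of Itga2 is a background value.

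**Figure D3:**
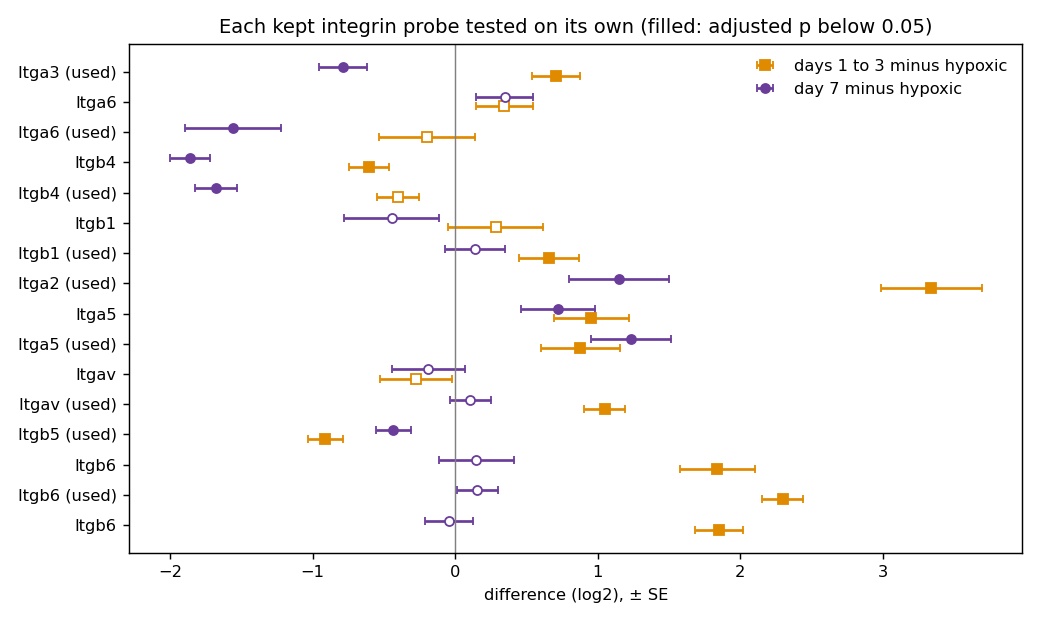
Differences of each of the 16 kept integrin probes, tested on its own, on days 1 to 3 and on day 7 against hypoxic cells, with SE as bars and filled symbols for an adjusted p below 0.05; "used" marks the probe that represents its gene. The 3 probes of Itgb6 lie together on days 1 to 3, as do both of Itgb4 on day 7 and both of Itga5 at either time, while the second probes of Itga6 and Itgav do not follow the first.

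By receptor class, the 3 subunits grouped as laminin-binding, Itga3, Itga6 and Itgb4, fell on day 7 by the probes used, against 33.7% of all genes, while their shared partner Itgb1 did not pass. They did not move together on days 1 to 3, when Itga3 rose, Itgb4 fell and Itga6 did not pass. The mean log2 level of the 9 epithelial markers was 10.25 to 10.45 on hypoxic and 9.54 to 9.59 on day 7 arrays. Its members were uneven. The mean of Trp63 went from 11.31 to 9.501 and that of Krt5 from 10.49 to 8.93. Cdh1 went from 11.98 to 10.68, Krt18 from 12.49 to 11.19 and Krt8 from 13.03 to 12.32. Epcam (6.79 and 6.71), Krt14 (14.37 and 14.15) and Cd24a (7.62 and 7.81) were closer, and Krt19 (5.16 and 4.79) was near background. Their part in the result was not tested, and in bulk RNA fewer cells of a type and less RNA per cell cannot be told apart. Of the RGD receptor subunits, 3 of the 4 measured rose early (Itga5, Itgav and Itgb6) and 1 fell (Itgb5), where 25.6% of all genes rose and 29.2% fell. By day 7 these too were mixed, as Itga5 rose, Itgb5 fell, and Itgav and Itgb6 did not pass. The early call of Itga5 was lost in 4 of 17 alternatives. That of Itgav was lost in 1, the mean over probes. The day 7 arrays were clear of the hypoxic range for 6 of 9 subunits (66% of all genes), and the early arrays for 8 of 9 (60.6%).

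The slope over normoxic days used no hypoxic array. Along it 6 of 9 subunits fell and 0 rose, where 19% of all genes fell, 16.5% rose and 35.5% passed either way. Besides Itgb6, Itga2, Itgav and Itga3, those that fell were Itgb4 (-0.25 ± 0.037, adjusted p = 0.000822) and Itga6 (-0.27 ± 0.060, adjusted p = 0.00607). Itgb1 did not pass (-0.097 ± 0.036, adjusted p = 0.0589), but did in 5 of 19 alternatives, among them a common median (-0.17, adjusted p = 0.00705) and the mean over probes (-0.12, adjusted p = 0.0142). Days 1 to 3 all lie in set b and days 4 to 6 in set a, so the step from day 3 to day 4 and the sets cannot be told apart. With the sets as a block all 6 calls held (-0.16 to -0.40, adjusted p 0.00223 to 0.0396). With the mean over probes the slopes of Itgav (-0.078, adjusted p = 0.0719) and Itga6 (-0.14, adjusted p = 0.0779) no longer passed. Within set b alone, with 2 hypoxic and 3 early arrays and 1 residual degree of freedom, 7 of the 8 early calls held, all but that of Itgb4 (-0.39, adjusted p = 0.104). 

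Other genes of integrin adhesion were counted from lists of partners. Over all lists 14 of 66 partner genes rose and 22 fell on day 7, where 25.9% of all genes rose and 33.7% fell. Of 16 further integrin subunits 10 were measured, of which 2 rose and 1 fell on day 7, fewer than the share of all genes called (59.7%). Itgae, which pairs with Itgb7 to bind E-cadherin, rose by 1.66 ± 0.29 (adjusted p = 0.00218). Itgae was detected on 1 of 3 hypoxic, 0 of 3 early and 3 of 3 day 7 arrays, so its hypoxic level was near background. Itgb7 did not pass on day 7 (-0.65 ± 0.36, adjusted p = 0.154). Itgad, a leukocyte subunit, was at least 1.45-fold higher (adjusted p = 0.00195 for the measured values) and not above background on hypoxic arrays. Its second probe did not pass (0.069, adjusted p = 0.796). Itga8, another RGD-binding alpha subunit, was at least 1.71-fold lower on day 7 (adjusted p = 0.000489 for the measured values), where it was not above background on any array.

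Of 4 hemidesmosome genes measured, 3 fell on day 7 (33.7% of all genes), with a median of -1.12 beside -0.11 over all genes. They were Dst, the gene of the plakin BPAG1, at -1.24 ± 0.19 (adjusted p = 0.00114), the collagen of hemidesmosomes Col17a1 at -1.20 ± 0.14 (adjusted p = 0.000350) and the linker Plec at -1.04 ± 0.16 (adjusted p = 0.000944). One more probe of Plec did not pass (-0.40, adjusted p = 0.149), nor did 1 of the 3 further probes of Dst (-0.78, adjusted p = 0.134). The tetraspanin Cd151, a membrane partner of laminin-binding integrins, stood at 0.098 ± 0.12 (adjusted p = 0.504), and at 0.65 (adjusted p = 0.00568) with arrays scaled on the median of always-detected probes. Col17a1 rose first, by 0.77 ± 0.14 on days 1 to 3 (adjusted p = 0.00317), from 11.67 to 11.87 on hypoxic arrays to 13.05 on day 1 and 11.95 on day 3.

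Of 22 adhesion plaque genes, which join integrin tails to actin, 1 rose and 10 fell on day 7 (25.9% and 33.7% of all genes, median -0.27). On days 1 to 3, 7 rose and 6 fell (median 0.016), near the shares of all genes (25.6% and 29.2%). The kinase-related adaptor Ilk rose by 0.84 ± 0.15 on day 7 (adjusted p = 0.00208). The actinin Actn4 fell by 1.41 (SE 0.13, adjusted p = 0.000101) and the tensin Tns3 by 1.32 (SE 0.14, adjusted p = 0.000219). Named after its values were seen, Fermt1, the epithelial kindlin that activates integrins, was also high early and near its hypoxic level on day 7. Its levels were 9.15 to 9.32 in hypoxic cells, 11.21, 10.79 and 11.16 on days 1 to 3, and 9.34 to 9.54 on day 7, with an early rise of 1.81 ± 0.12 (adjusted p = 3.31e-05). Among 8 regulators of integrin activity 4 rose and 1 fell on day 7 (25.9% and 33.7% of all genes, median 0.36). Rap1b, a GTPase that drives integrin activation, rose by 0.90 ± 0.15 (adjusted p = 0.00184), and Rapgef1, an exchange factor for Rap1, fell by 0.92 (SE 0.14, adjusted p = 0.000925). The Itgb1-binding protein Itgb1bp1 rose by 1.68 ± 0.13 on the probe used (adjusted p = 5.37e-05) and fell by 1.48 on another (SE 0.15, adjusted p = 0.000198), so its direction is not settled.

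Among ligands, of 6 laminin chains 0 rose and 4 fell on day 7 (25.9% and 33.7% of all genes, median -1.47), and 4 had fallen on days 1 to 3 (29.2% of all genes, median -1.12). Lama5 differed by -2.51 ± 0.23 on days 1 to 3 (adjusted p = 0.000116) and by -3.51 ± 0.23 on day 7 (adjusted p = 3.20e-05). Lamb3, a chain of laminin-332, gave -1.19 and -2.84 (SE 0.14 for both, adjusted p = 0.000402 and 1.60e-05). Of 7 collagen chains 5 rose and 1 fell on day 7 (25.9% and 33.7% of all genes, median 1.24), and 6 rose on days 1 to 3 (25.6% of all genes, median 1.16). Col1a1, not above background on any hypoxic array, was at least 8.18-fold higher early and at least 9.22-fold higher on day 7. Its measured values gave an adjusted p of 7.73e-06 early and 1.13e-05 on day 7. The fibrillar chain Col5a1 rose by 2.46 ± 0.23 on day 7 (adjusted p = 0.000117), and the basement membrane chain Col4a2 fell by 0.60 (SE 0.12, adjusted p = 0.00474). The mean log2 level of the 7 fibroblast markers, which share Col1a1 and Col1a2 with this list, was 5.48 to 5.66 on hypoxic and 6.82 to 7.11 on day 7 arrays. Dcn went from 6.63 to 10.40 and Pdgfra from 7.83 to 7.38, Thy1 was detected on no array, and Pdgfrb on 0 hypoxic arrays. Their part in the result was not tested.

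Of 9 RGD-bearing and related matrix ligands 2 rose and 2 fell on day 7 (25.9% and 33.7% of all genes, median -0.15). On days 1 to 3, 4 rose and 3 fell (25.6% and 29.2% of all genes, median 0.0056). Fibronectin, Fn1, fell, at -1.38 on days 1 to 3 and -0.92 on day 7 (SE 0.17 for both, adjusted p = 0.000509 and 0.00299), while its receptor subunit Itga5 rose. Tenascin C, Tnc, rose by 2.05 and 1.66 (SE 0.16, adjusted p = 6.43e-05 and 0.000148), although 1 of its 2 further probes did not pass on day 7 (0.70, adjusted p = 0.0662). The matricellular protein Ccn1 rose by 1.99 and 1.49 (SE 0.16, adjusted p = 6.61e-05 and 0.000211), and the milk fat globule protein Mfge8 fell, at -0.69 and -0.70 (SE 0.11, adjusted p = 0.00154 and 0.00131). The day 7 call of Mfge8 was lost with arrays scaled on the median of always-detected probes (-0.19, adjusted p = 0.266). Thrombospondin 1, Thbs1, also named after its values were seen, was detected on 3 of 3 early and 0 of 3 hypoxic arrays. On days 1 to 3 it was at least 4.13-fold higher (adjusted p = 2.26e-05 for the measured values).

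**Figure D4:**
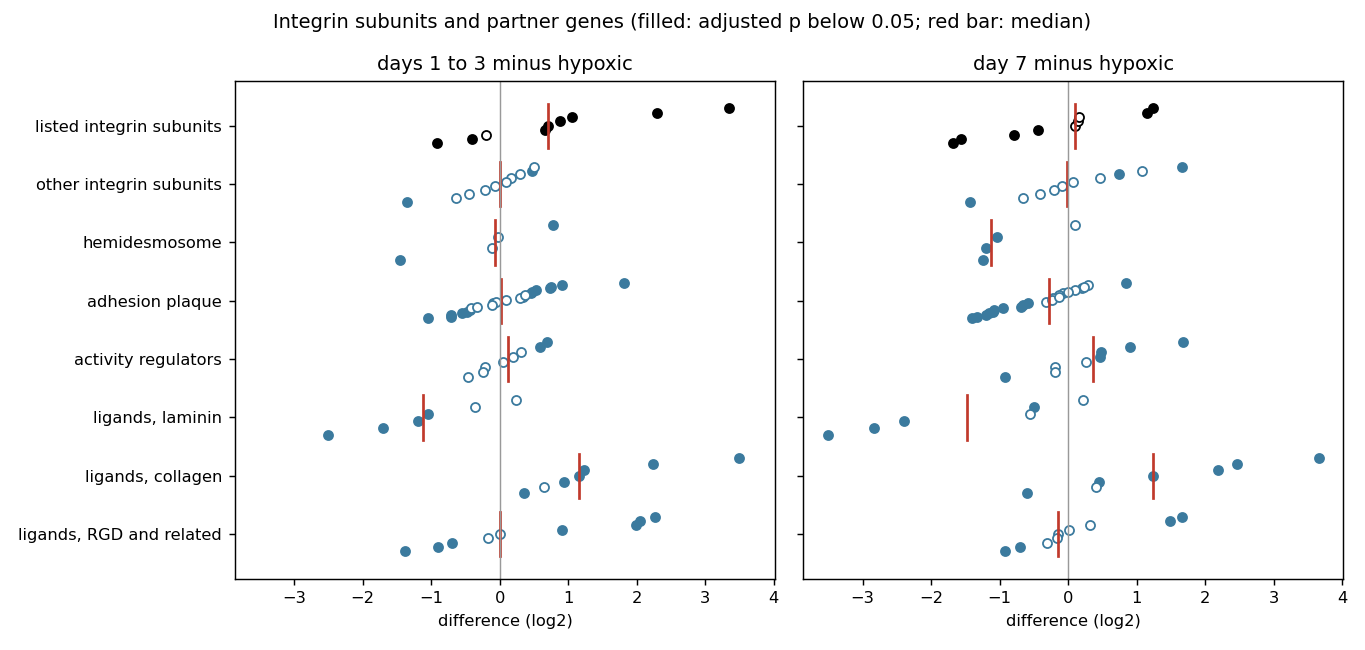
Differences in log2 level from hypoxic cells on days 1 to 3 (left) and on day 7 (right) for 9 listed integrin subunits (black) and the measured genes of 7 partner lists (blue); each point is a gene, filled where the adjusted p is below 0.05, and red bars are medians. Laminin chains have medians of -1.12 and -1.47 and collagen chains of 1.16 and 1.24; both panels use the same hypoxic arrays.

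The genes with the course most like each subunit, by Pearson r of log2 levels over the 12 arrays, were Krt90 (0.98) and Lrrc8c (0.97) for Itgb6, and Ddx51 (0.98) and A730008H23Rik (0.96) for Itga2. For Itgav they were Slc25a25 (0.96) and Plk2 (0.94), for Itga3 Uaca and Slc9a3r1 (both 0.99), and for Itgb4 Asb16 (0.99) and Zfp574 (0.98). Itga6 was closest to Lrp5 and Zzef1 (both 0.95), Itgb5 to Manba and Serinc1 (both 0.94), Itga5 to Plscr2 (0.93) and Ube2t (0.92), and Itgb1 to Ttpal and Eya3 (both 0.92).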

How the data were processed

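Immortalized tumor-initiating cells were profiled on 12 arrays in 8 groups, taken from the sample titles. The deposited table held log2 signals, neither background-corrected nor normalized as far as the values show, and detection p-values. The deposited p-value columns carried no sample names, and each was matched to the 1 signal column that it ordered exactly. For scanning and export no software was given in the sources used here. The authors' processed table, whose names conflict, served only to define the sets.

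Signals were processed with neqc of limma 3.58.1 in R 4.3.3 (offset 16, quantile normalization). Probes detected at p below 0.05 on at least 3 arrays were kept (18561), and each of 10365 genes took its kept probe of highest mean. Probe names came from the platform annotation. Group means (4 residual degrees of freedom) or a slope over the 9 normoxic arrays (7) were fitted with limma and eBayes, with 2-sided tests and Benjamini-Hochberg adjustment over all genes. Single arrays of days 1 to 3 were taken to vary like the triplicates. A bound (at least N-fold) sets the mean of the brighter group against the lowest detected signal per array. The adjusted p given with it tests the measured difference, not the bound.

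Members, lists and tests were chosen with earlier results of these data known. Named were all subunits and, per partner list, up to 2 genes rising and 2 falling most on day 7 (all genes of lists under 6 measured), and the 2 likeliest genes per subunit. No pairing of hypoxic and day 7 arrays by replicate number was visible. Correlations of deviations were 0.029, -0.0037 and 0.059 for the same number and -0.11 to 0.078 for different numbers. With 3 arrays per group, this cannot show that the samples were unpaired. The fits were tested on simulated data. The number of arrays limits the precision. Protein sequences were not used here.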

Additional observations from a re-analysis of the deposited data

Results flagged for a closer look

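The changes on days 1 to 3 and on day 7 differed, by a test of day 7 against days 1 to 3 in the same fit that was chosen after the data were seen, for 7 of 9 subunits (6 lower on day 7, 1 higher), where 44.7% of all genes passed and 24.6% were lower. Day 7 minus days 1 to 3 was -2.19 ± 0.35 for Itga2 (limma adjusted p = 0.00275), -2.14 ± 0.14 for Itgb6 (0.000108), -1.49 ± 0.16 for Itga3 (0.000650), -1.36 ± 0.34 for Itga6 (0.0152), -1.27 ± 0.14 for Itgb4 (0.000679) and -0.94 ± 0.14 for Itgav (0.00177). For Itgb5 it was 0.48 ± 0.11 (0.0126). All 3 early arrays are in set b and 2 of the 3 day 7 arrays in set a. With the sets as a block 5 subunits were lower and 0 higher (31.8% of all genes passed), and the calls of Itga6 (-1.23, adjusted p = 0.0770) and Itgb5 (0.45, adjusted p = 0.0623) were lost. All 3 day 7 arrays lay on the stated side of all 3 early arrays for each of these subunits. Itga5 (0.36 ± 0.28, adjusted p = 0.334) and Itgb1 (-0.52 ± 0.21, adjusted p = 0.0808) did not pass.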

How the results depend on the processing

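For day 7 against hypoxic cells, 6 subunits passed in the reported fit, 2 within set a and 3 within set b, where 1 arm is a single array assumed to vary like the others, and of the partner genes 36 passed, against 22 within set a; leaving out 1 array gave 5 to 6 subunits and 34 to 38 partner genes. For days 1 to 3, 8 subunits passed (54.9% of all genes), and 5 with no filter on detection (28.8%). With 1 array left out 5 to 8 passed (48.1% to 51.7%), the lowest count coming without hypoxic replicate 2 or day 3. The slope kept 6 calls whichever array was left out (26.3% to 36.2% of all genes). With the replicate number as a block 6 subunits and 36 partner genes passed on day 7 (57.9% of all genes). Directions on day 7 turned for subunits that had not passed. With a common median they were -0.23 (Itgav), -0.25 (Itgb1) and -0.25 (Itgb6), with the mean over probes -0.042 (Itgav) and -0.15 (Itgb1), and within set b -0.037 (Itgav); with 1 array left out Itgb1 ranged from -0.058 to 0.27. Itga6 on days 1 to 3 turned to 0.073 with the mean over probes and ranged from -0.45 to 0.0065 with 1 array left out. Of 21 named partner genes past the threshold on day 7, 2 lost the call in at least 1 alternative that used both sets, and 0 reversed. The cause of these changes was not tested. The common median moved the day 7 median of all genes from -0.11 to -0.31, and that over probes detected on all arrays to 0.089; the share of calls that were higher was 43.5% in the reported fit, 31.8% and 52.4%. For the slope it was 46.5%, 24.6% and 56.2%. Genes passing the slope came to 35.5%, and to 20.2% with the sets as a block. Without a filter 30.8%, 28.8% and 17.1% of genes passed for day 7, days 1 to 3 and the slope.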
